A study of Homo sapiens
Mus musculus with 25 samples.

Results

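The interferon-stimulated genes described here are 49 protein-coding genes of the human antiviral response, found by their symbols among the 38128 genes of a counts table from HT29 tumour xenografts. Cells that detect foreign nucleic acid release interferons, which bind receptors on the cell surface and, through Janus kinases, activate transcription factors of the STAT family. STAT2 and IRF9 are parts of the complex ISGF3, which switches on a broad set of genes whose products sense viral RNA, block its translation, degrade it, hold virus at membranes or attract lymphocytes. Tumour cells often keep a low, standing level of this programme without infection, and its genes usually rise and fall together.

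RNA was taken from whole xenograft tumours of the human colorectal cancer cell line HT29, an established line, and the reads on the exons of each human gene were counted. There were 25 tumours: 5 of wild-type HT29 cells (WT), 5 of PTPRK knockout cells with tGFP, a green fluorescent protein (PTPRK KO), 6 of knockout cells given back PTPRK (PTPRK), 4 of knockout cells given PTPRK.R1095Q (PTPRK.RQ) and 5 of knockout cells given PTPRK.C1089S. PTPRK is a receptor tyrosine phosphatase at cell contacts; R1095Q replaces the arginine and C1089S the cysteine of its catalytic motif, and mutants of that cysteine can hold on to substrates. By the labels all tumours, WT and PTPRK KO included, were exposed to doxycycline, which drives the inducible constructs. By the methods of the study, nude mice, which lack T cells but keep innate immune cells, carried the tumours under the skin. The knockout cells were a sorted pool and not stated to be 1 clone. In images of PTPRK and PTPRK.RQ tumours the study saw uneven tGFP, its proxy for the reintroduced protein. The study's methods describe no PTPRK.C1089S xenografts, and PTPRK replicate 6 and the PTPRK.C1089S tumours are absent from the study's own gene list by tumour. Whether these 6 tumours were grown and sequenced with the others is not stated, so that the PTPRK.C1089S group and a possible batch cannot be told apart.

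Each tumour gave between 43727372 and 59355464 counts. In CPM, which are counts scaled to 1000000 per library, PTPRK itself ran at 317 ± 14.0 (mean ± SD, n = 5) in WT, 45.3 ± 19.2 (n = 5) in PTPRK KO, 1850 ± 355 (n = 6) in PTPRK, 1290 ± 308 (n = 4) in PTPRK.RQ and 1510 ± 278 (n = 5) in PTPRK.C1089S tumours. The level was thus lower in PTPRK KO and higher in the tumours given a construct than in WT, and counts per gene cannot show which construct a tumour carried. The 8 epithelial markers summed to between 4270 and 6050 CPM in all tumours. The 8 leukocyte and macrophage markers summed to between 2.60 and 6.06 CPM, with ranges of 4.14 to 5.28 in PTPRK.C1089S and 3.33 to 6.06 in PTPRK KO. PTPRC, which defines leukocytes, reached at most 15 counts in any tumour. All markers given here are human genes, so they do not measure the mouse cells of the host. Reads were mapped separately to human and mouse, so mouse reads that also align to human genes may add to these counts. The 8 fibroblast and vessel wall markers summed to between 16.1 and 22.4 CPM in PTPRK.C1089S and between 8.10 and 17.4 in PTPRK KO tumours, mostly from COL1A1 and LUM, while COL1A2 and COL3A1, which fibroblasts make with them, did not pass 3 counts in any tumour. Among the 5 endothelial markers, which summed to between 2.53 and 5.07 CPM in PTPRK.C1089S and between 0.740 and 3.20 in PTPRK KO tumours, PECAM1 was higher in PTPRK.C1089S (log2 fold change 1.43, adjusted p = 0.0149 by edgeR's quasi-likelihood test), and KDR did not pass 1 count. PECAM1 was also called higher over PTPRK KO with PTPRK (1.98, adjusted p = 0.00263) and with PTPRK.RQ (2.02, adjusted p = 0.00314). Of the epithelial markers, KRT20 (0.49) and CDH1 (0.26) were called higher and LGALS4 (-0.40) lower in PTPRK.C1089S than in PTPRK KO. The part of the fibroblast, endothelial and epithelial genes in the results below was not tested.

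The comparison of PTPRK.C1089S with PTPRK KO tumours shows how these genes differed between tumours with and without the cysteine mutant on the knockout background. The mutant and a possible batch cannot be told apart in it. Of the 49 members, all of which passed the filter on low counts, 38 rose, none fell and 11 were not called, whereas 9.09% of all 18758 tested genes were called higher and 7.53% lower (edgeR's quasi-likelihood test, here and below, with p-values adjusted after Benjamini and Hochberg and a threshold of 0.05). The members' median log2 fold change was 0.82, and that of all tested genes was -0.0033. All 49 estimates were above 0, from 0.12 for IRF1 to 1.69 for OAS2, and in 21 members every PTPRK.C1089S tumour was above every PTPRK KO tumour, which held for 5.52% of all tested genes. Leaving out any 1 of the 10 tumours gave between 35 and 43 called members. In bulk tumour RNA a change in the share of cells that express a gene and a change in RNA per cell cannot be told apart.

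**Figure D1:**
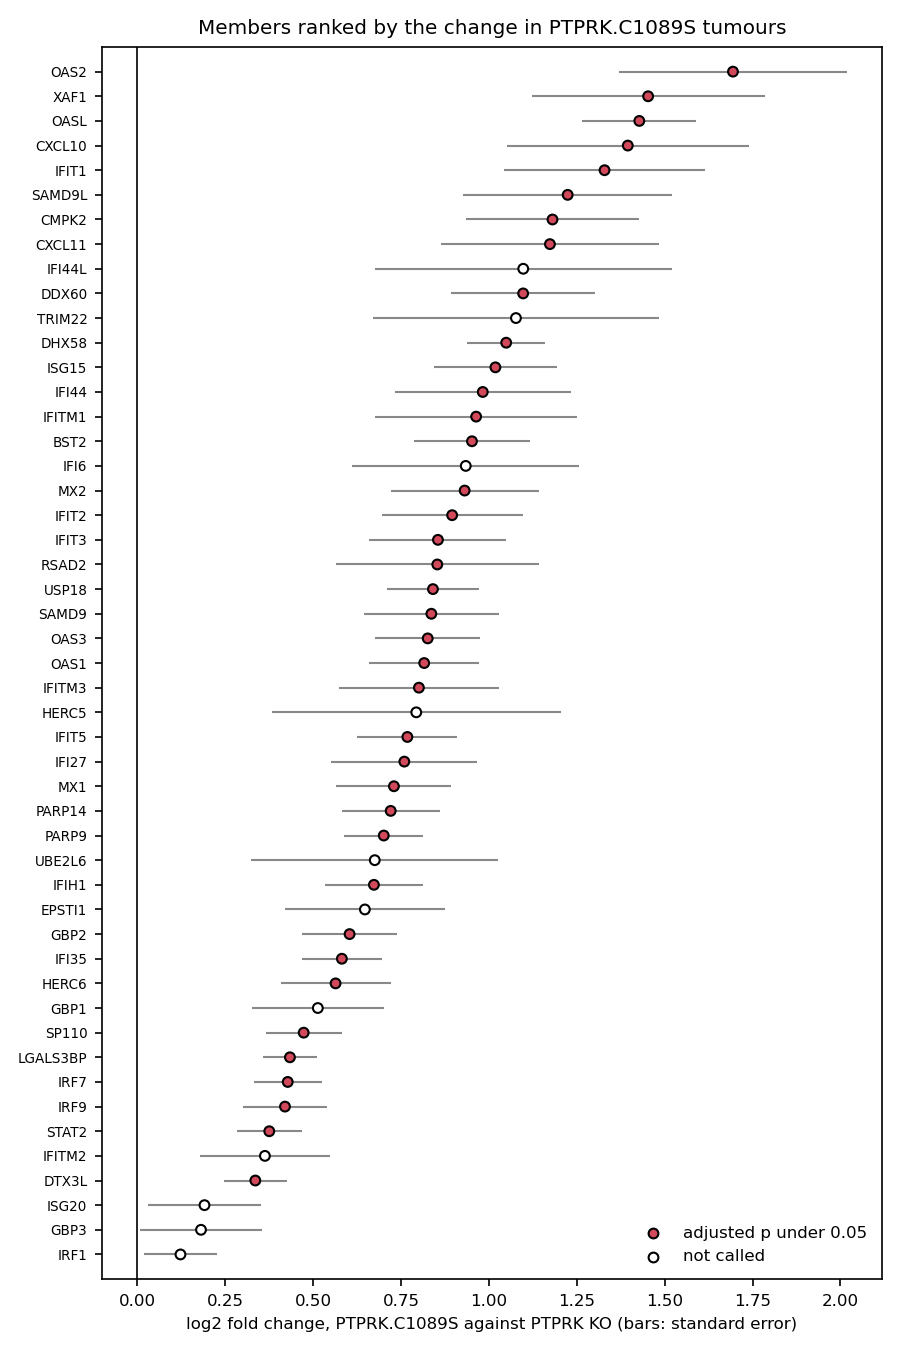
Log2 fold change of the 49 members in PTPRK.C1089S against PTPRK KO tumours (n = 5 each), ranked, with bars for the standard error and filled points for an adjusted p under 0.05. All estimates lie above 0, OAS2 is highest at 1.69, and ISG20, GBP3 and IRF1 are lowest at 0.19, 0.18 and 0.12.

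The OAS family showed the highest member. OAS1, OAS2 and OAS3 make short oligoadenylates on double-stranded RNA, which switch on the ribonuclease RNase L, while OASL lacks this activity and instead promotes RNA sensing; all 4 rose in PTPRK.C1089S against PTPRK KO, by a median log2 fold change of 1.13. OAS2 stood at 13.5, 16.5, 17.4, 22.9 and 38.4 CPM in the PTPRK KO tumours (replicates 1 to 5) and at 73.2, 49.3, 76.5, 99.6 and 52.5 CPM in the PTPRK.C1089S tumours. It stood at 8.55, 10.6, 7.77, 18.6 and 21.5 CPM in WT, 34.9, 34.5, 41.2, 43.3 and 27.3 in PTPRK replicates 1 to 5, and 26.1, 34.8, 28.8 and 58.6 in PTPRK.RQ. Here and below, lists of PTPRK values by tumour hold replicates 1 to 5, and replicate 6 is given apart. Replicate 6 stood at 70.0 CPM for OAS2, within the PTPRK.C1089S range, and at 31.0 for OASL, below it. Every PTPRK.C1089S tumour was above every PTPRK KO tumour, the nearest being PTPRK KO replicate 5, and the change was 3.24-fold (log2 fold change 1.69 ± 0.32 (SE), adjusted p = 9.71e-04). OASL ran at 12, 15.3, 13.3, 16.2 and 18 CPM in PTPRK KO and at 54.1, 39.6, 42.1, 31.6 and 33.0 CPM in PTPRK.C1089S tumours. Its PTPRK values of 20, 22.8, 32.2, 29.0 and 27.1 CPM and PTPRK.RQ values of 20.2, 29.4, 22.9 and 26.6 lay above all PTPRK KO tumours, with PTPRK replicate 3 inside the PTPRK.C1089S range, and WT at 13.2, 11.0, 8.6, 14.5 and 14.1 lay near PTPRK KO. PTPRK and PTPRK.RQ tumours also did not overlap PTPRK KO for OASL, and its rise in PTPRK.C1089S was 2.69-fold (1.43 ± 0.16, adjusted p = 1.32e-06). The most abundant reads of the family were those of OAS3, at 191 ± 28.2 against 108 ± 28.3 CPM (log2 fold change 0.83), and OAS1, at 92.2 ± 10.9 against 52.6 ± 14.0 CPM (0.82).

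The RNA sensors rose together. DHX58, which encodes LGP2, a regulator of viral RNA sensing, had the smallest adjusted p of all members in this comparison. It stood at 7.35, 7.46, 6.36, 6.57 and 9.41 CPM in PTPRK KO and 16.6, 13.8, 14.8, 16.7 and 14.7 CPM in PTPRK.C1089S tumours. WT tumours at 7.71, 7.55, 5.75, 8.24 and 8.24 CPM were in the PTPRK KO range except replicate 3, which was below it. PTPRK at 9.47, 9.48, 10.1, 9.21 and 10.2 and PTPRK.RQ at 10.8, 9.93, 9.08 and 11.8 were above the PTPRK KO range except PTPRK replicate 4 and PTPRK.RQ replicate 3, which were below PTPRK KO replicate 5. The PTPRK.C1089S tumours were apart from all other groups, 2.07-fold above PTPRK KO (1.05 ± 0.11, adjusted p = 3.11e-07). DDX60, a helicase that aids RNA sensing, stood at 12.8, 19.8, 18.8, 23.8 and 26.8 CPM in PTPRK KO and at 46.7, 33.1, 40.6, 65.0 and 32.3 in PTPRK.C1089S. It stood at 13.4, 12, 10.4, 17.1 and 15.6 CPM in WT, 26.2, 28.2, 33.9, 38.0 and 24.6 in PTPRK and 18.7, 26.8, 26.5 and 32.5 in PTPRK.RQ tumours. The PTPRK.C1089S tumours did not overlap PTPRK KO but overlapped PTPRK and, by 1 tumour, PTPRK.RQ, with a rise over PTPRK KO of 1.10 ± 0.21 on the log2 scale (adjusted p = 6.22e-04). In PTPRK replicate 6, DHX58 stood at 12.2 CPM, below the PTPRK.C1089S range, and DDX60 at 42.4, within it. IFIH1, the sensor of long double-stranded RNA known as MDA5, rose by 0.67 ± 0.14 (adjusted p = 0.00127), from 24.3 ± 5.26 to 38.7 ± 9.21 CPM.

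All 4 IFIT genes, whose products bind foreign RNA and block its translation, rose by log2 fold changes between 0.77 and 1.33. IFIT1 stood at 10.3, 14.7, 12.6, 18.9 and 26.8 CPM in PTPRK KO and at 55.9, 34.4, 40.4, 47.9 and 29.9 CPM in PTPRK.C1089S tumours. It stood at 8.27, 6.32, 3.91, 11.5 and 13.3 CPM in WT, 19.8, 18.2, 21.9, 28.1 and 18.7 in PTPRK and 19.6, 24.9, 19.3 and 33.0 in PTPRK.RQ tumours. PTPRK.C1089S and PTPRK KO did not overlap for IFIT1, which rose 2.51-fold (1.33 ± 0.29, adjusted p = 0.00251). In PTPRK replicate 6 it stood at 45.1 CPM, within the PTPRK.C1089S range. IFIT3 went from 18.6 ± 4.76 to 33.6 ± 7.36 CPM and IFIT5 from 15.9 ± 3.19 to 27.0 ± 5.26 CPM. Among the IFITM genes, whose membrane proteins block virus entry, IFITM3 rose from 59.4 ± 17.2 to 103 ± 13.3 CPM and IFITM1 from 9.39 ± 2.84 to 18.3 ± 6.36 CPM, and IFITM2, at 36.2 ± 7.80 and 46.4 ± 11.0 CPM, was not called (log2 fold change 0.36, adjusted p = 0.208).

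Among 8 other antiviral effectors, 6 rose. SAMD9L, which restrains translation in infected cells, stood at 1.89, 4.13, 1.77, 3.18 and 4.60 CPM in PTPRK KO and at 6.82, 5.06, 5.87, 14.2 and 4.37 in PTPRK.C1089S tumours. WT tumours had 2.31, 1.49, 1.08, 2.51 and 2.30 CPM, PTPRK 4.0, 3.59, 3.28, 4.55 and 3.25 and PTPRK.RQ 3.81, 4.62, 3.72 and 6.16. PTPRK.C1089S replicate 4 was far above the rest, replicate 5 was within the PTPRK KO range, and the rise was 1.22 ± 0.30 (adjusted p = 0.00548), falling to 0.83 without replicate 4. CMPK2, a mitochondrial nucleotide kinase, stood at 6.05, 5.65, 4.79, 5.59 and 9.11 CPM in PTPRK KO and at 15.1, 10.4, 16.5, 18.8 and 9.72 in PTPRK.C1089S tumours. It stood at 3.8, 4.90, 1.95, 4.50 and 5.64 CPM in WT, 8.15, 8.74, 6.81, 9.39 and 5.48 in PTPRK and 10.6, 7.96, 7.27 and 14.7 in PTPRK.RQ tumours. PTPRK.C1089S tumours were above all PTPRK KO and PTPRK replicates 1 to 5 and overlapped PTPRK.RQ, with a rise over PTPRK KO of 1.18 ± 0.25 (adjusted p = 0.00158). PTPRK replicate 6, at 7.20 CPM for SAMD9L and 14.5 for CMPK2, was within the PTPRK.C1089S range for both. The most abundant reads in this group were those of BST2, known as tetherin because it holds budding virus at the membrane, which rose from 82.6 ± 26.8 to 159 ± 25.9 CPM, and of SAMD9, the relative of SAMD9L, which rose from 50.1 ± 12 to 89.2 ± 34.6 CPM.

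XAF1, which promotes cell death by opposing an inhibitor of apoptosis, was the second highest called member. It stood at 1.75, 2.08, 1.97, 3.07 and 4.66 CPM in PTPRK KO and at 7.25, 4.35, 6.51, 12.3 and 6.55 in PTPRK.C1089S tumours. WT tumours had 1.07, 0.913, 0.391, 1.61 and 1.58 CPM, PTPRK 3.84, 4.03, 2.47, 4.66 and 2.90 and PTPRK.RQ 4.74, 3.35, 2.54 and 6.69. PTPRK KO replicate 5 and PTPRK.C1089S replicate 2 overlapped, and the rise was 2.74-fold (1.45 ± 0.33, adjusted p = 0.00345). PTPRK replicate 6, at 11.2 CPM, was within the PTPRK.C1089S range. With XAF1, 5 of the 8 IFI genes and others rose. The most abundant reads were those of LGALS3BP, a secreted glycoprotein that binds galectins, from 797 ± 56.0 to 1070 ± 80.2 CPM (log2 fold change 0.43), and IFI27, a small membrane protein of mitochondria and nuclear envelope, from 170 ± 54.7 to 287 ± 64.6 CPM (0.76).

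Both chemokine genes rose, at low levels. CXCL10 and CXCL11 encode ligands of the receptor CXCR3 on activated T and NK cells. CXCL10 stood at 0.374, 0.578, 0.389, 0.470 and 0.358 CPM in PTPRK KO and at 1.84, 0.771, 0.898, 1.49 and 0.713 in PTPRK.C1089S tumours, with WT at 0.132, 0.264, 0.0689, 0.412 and 0.340, PTPRK at 0.388, 0.519, 0.724, 0.655 and 0.868 and PTPRK.RQ at 0.937, 0.485, 0.523 and 0.721. CXCL11 stood at 0.886, 0.771, 0.837, 1.07 and 1.41 CPM in PTPRK KO and at 3.03, 2.37, 2.03, 2.44 and 1.35 in PTPRK.C1089S tumours, with WT at 0.376, 0.409, 0.253, 0.395 and 0.740, PTPRK at 0.795, 1.62, 1.94, 2.64 and 0.591 and PTPRK.RQ at 1.15, 1.29, 1.59 and 0.943. CXCL10 did not overlap between PTPRK.C1089S and PTPRK KO (1.40 ± 0.34, adjusted p = 0.00528), and CXCL11 overlapped by PTPRK.C1089S replicate 5 only (1.17 ± 0.31, adjusted p = 0.00891). PTPRK replicate 6 stood at 1.63 CPM for CXCL10, within the PTPRK.C1089S range. For CXCL11 it stood at 3.60 CPM, above every PTPRK.C1089S tumour.

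The transcription factors moved least. STAT2 and IRF9, subunits of ISGF3, rose by 0.38 ± 0.09 and 0.42 ± 0.12, and IRF7, which amplifies interferon production, by 0.43 ± 0.10. IRF7 and IRF1 had the most abundant reads of the group: IRF7 rose from 38.8 ± 5.40 to 52.0 ± 1.76 CPM, and IRF1, at 34.0 ± 3.08 and 36.9 ± 3.47 CPM, was not called. Of the ISG15 system, ISG15 itself, a ubiquitin-like modifier of proteins, rose from 67.9 ± 16.2 to 137 ± 24.3 CPM (1.02 ± 0.18). USP18, which removes ISG15 and restrains the interferon receptor, rose by 0.84 and HERC6, a large HERC-family protein with reads at 22.5 ± 4.22 and 33.2 ± 7.04 CPM, by 0.56, whereas UBE2L6 and HERC5, the conjugating enzyme and ligase of ISG15, were not called. PARP9 and DTX3L, partners in one ubiquitin ligase complex, and the ADP-ribosyltransferase PARP14 all rose, PARP14 from 92.7 ± 17.5 to 152 ± 42.0 CPM and DTX3L from 108 ± 9.51 to 136 ± 25.6 CPM. Of the GTPases, MX1 and MX2, which trap viral components, rose by 0.73 and 0.93, MX1 from 32.5 ± 7.59 to 53.7 ± 8.98 CPM. Of the guanylate-binding proteins, GTPases against intracellular pathogens, GBP2 rose from 25.5 ± 5.52 to 38.7 ± 4.31 CPM, and GBP1 and GBP3 were not called.

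**Figure D2:**
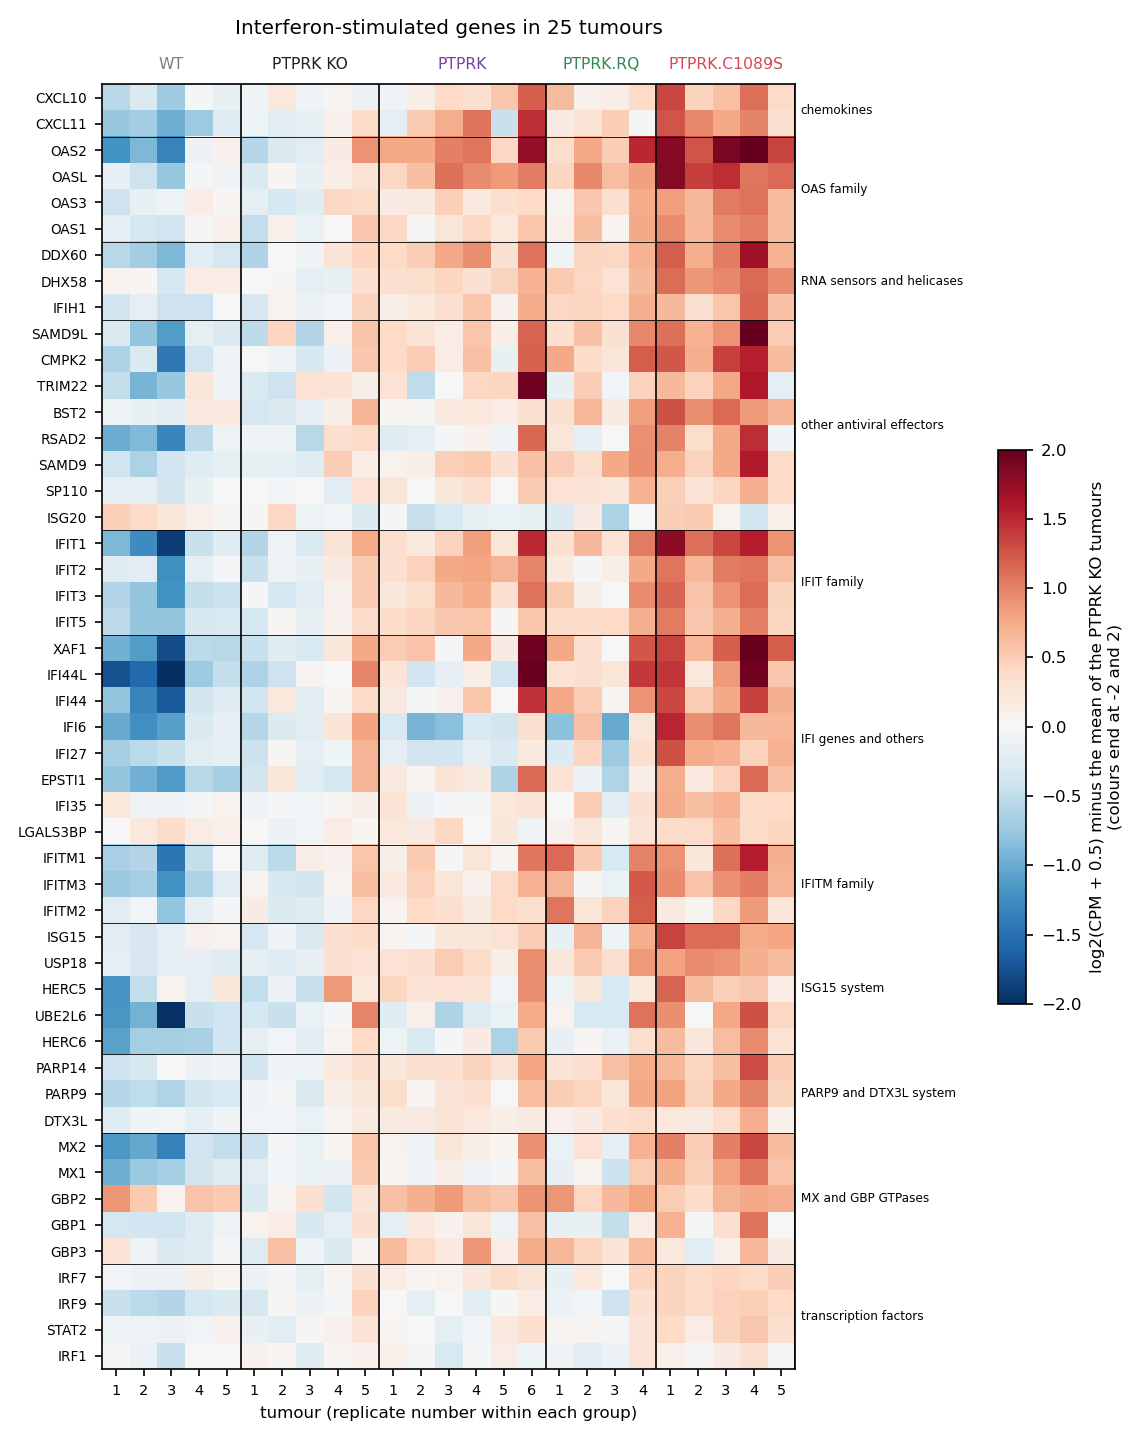
Level of the 49 members in all 25 tumours as log2(CPM + 0.5) minus the mean of the 5 PTPRK KO tumours, grouped by role, with red above and blue below that mean. PTPRK.C1089S tumours are red in most rows, PTPRK replicate 6 is redder than the other 5 PTPRK tumours, WT tumours are mostly blue, and GBP2 and ISG20 are mostly red in WT.

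The 11 members not called in this comparison, singled out after their values were seen, did not form a single class. For IFI44L (1.10 ± 0.42, adjusted p = 0.0832), TRIM22 (1.08 ± 0.41, 0.0711) and IFI6 (0.93 ± 0.32, 0.0529) the estimate was among the upper members and the spread was wide. Calls among the 11 also depended on the tool, since DESeq2 called IFI6 (adjusted p = 0.03), EPSTI1 (0.0299), TRIM22 (0.0473) and GBP1 (0.0462), and an edgeR fit of the 10 tumours alone called IFI6 (adjusted p = 0.0385). Others turned on 1 tumour. Without PTPRK KO replicate 5 the adjusted p was 0.0231 for IFI44L, 0.0169 for IFI6, 0.0072 for EPSTI1, 0.0392 for UBE2L6 and 0.0400 for GBP1. Without PTPRK.C1089S replicate 2 it was 0.0485 for IFI44L, 0.0263 for EPSTI1 and 0.0184 for GBP1, and without PTPRK.C1089S replicate 5 it was 0.0264 for TRIM22 and 0.0257 for GBP1. HERC5, with at most 2.34 CPM in any tumour, was called without PTPRK KO replicate 4 (adjusted p = 0.0326).

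The other 4 of the 11, IRF1, ISG20, GBP3 and IFITM2, were called under none of the 10 fits that left out 1 tumour and none of 7 other alternatives. IRF1, a transcription factor that interferon gamma induces strongly, had nearly level values: 34.6, 31.1, 24.8, 34.0 and 33.8 CPM in WT, 36.0, 34.7, 28.6, 34.8 and 35.9 in PTPRK KO and 36.2, 34.4, 38.2, 42.1 and 33.3 in PTPRK.C1089S tumours. All groups overlapped, and the 95% interval of the log2 fold change of PTPRK.C1089S over PTPRK KO ran from -0.0925 to 0.34. ISG20, an exonuclease for single-stranded RNA, stood at 26.3, 24.7, 22.2, 20.3 and 19.1 CPM in WT, 19.2, 25.1, 17.5, 18.1 and 15.4 in PTPRK KO and 26.8, 27.2, 19.7, 14.1 and 20.3 in PTPRK.C1089S tumours. Its lowest PTPRK.C1089S value was in replicate 4, the tumour in which most other members were highest, and the interval ran from -0.14 to 0.52. GBP3 stood at 17.3, 31.5, 19.5, 17.1 and 21.6 CPM in PTPRK KO and at 24.2, 17.8, 22.4, 33.3 and 23.3 in PTPRK.C1089S tumours, which overlapped widely, with an interval from -0.18 to 0.54.

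**Figure D3:**
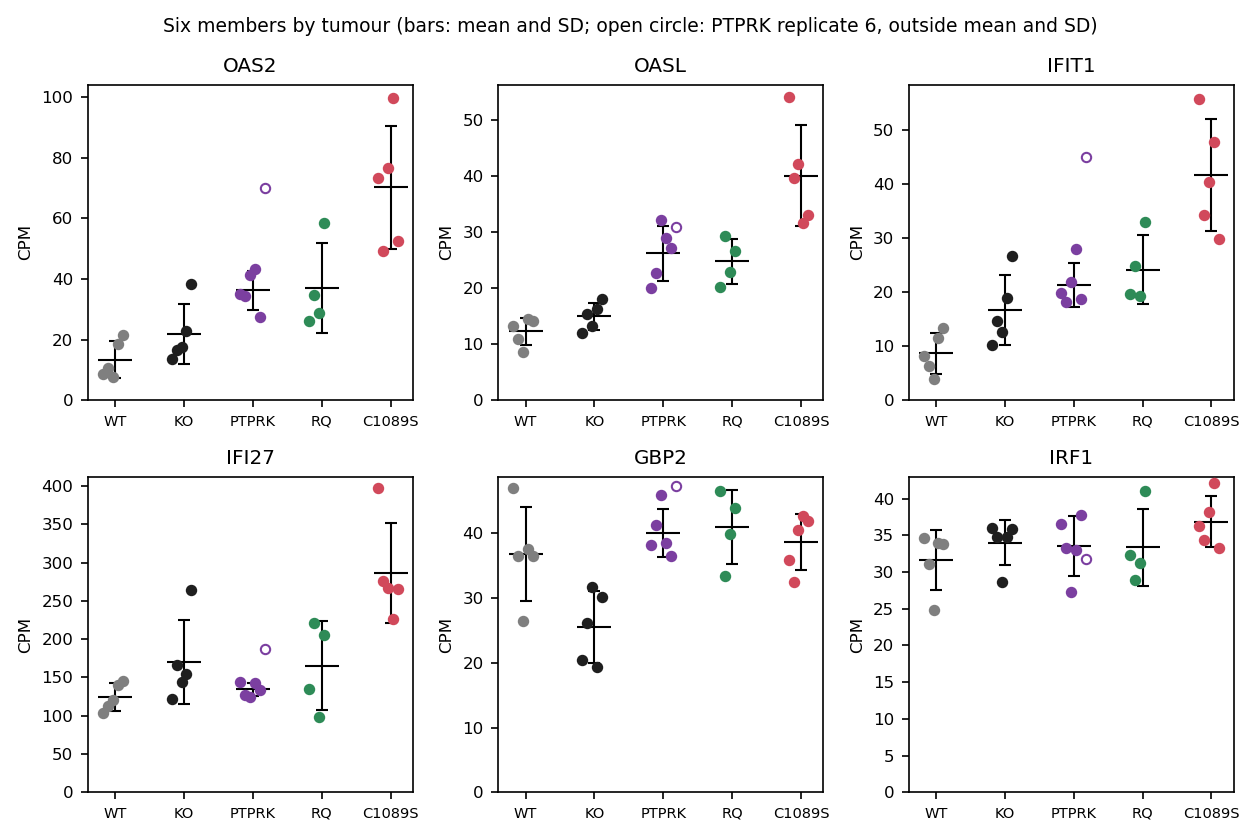
CPM of 6 members in each tumour by group, with mean and SD as bars; the open circle is PTPRK replicate 6, which is outside the bars. OAS2, OASL, IFIT1 and IFI27 are highest in PTPRK.C1089S, GBP2 is lower in PTPRK KO than in the other groups, and IRF1 overlaps between all groups.

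Against the tumours given unmutated PTPRK (replicates 1 to 5), the PTPRK.C1089S tumours had 22 of 49 members called higher and none lower, beside 4.7% of all tested genes called higher and 3.99% lower, with 2 estimates below 0 and a median log2 fold change of 0.56 for the members and 0.0027 for all genes. In 19 members the groups did not overlap, beside 2.45% of all tested genes. Both figures leave out PTPRK replicate 6, which stood at or above the lowest PTPRK.C1089S tumour in 36 of the 49 members. The share of all tested genes for that count was not determined. A single tumour would often stand at or above the lowest of 5 others even without a group difference. The largest called differences were in IFI6, a mitochondrial protein that restrains cell death, IFI27 and XAF1. IFI6 stood at 47.9, 30.8, 32.8, 47.9 and 45.4 CPM in PTPRK and at 171, 113, 124, 92.5 and 94.0 in PTPRK.C1089S tumours, a log2 fold change of 1.54 ± 0.33 (adjusted p = 0.00960). IFI27 stood at 144, 127, 125, 143 and 134 CPM in PTPRK and at 397, 276, 267, 226 and 266 in PTPRK.C1089S tumours, a difference of 1.09 ± 0.21 (adjusted p = 0.00515). Neither gene overlapped between these groups. XAF1 overlapped (1.04 ± 0.33, adjusted p = 0.0480), and its call was lost when any of PTPRK replicates 1 to 5 or PTPRK.C1089S replicates 1, 3, 4 or 5 was left out, with adjusted p up to 0.106, and with PTPRK replicate 6 in the fit (0.61, adjusted p = 0.272). The count fell to 13 without PTPRK replicate 2 and to 14 without PTPRK.C1089S replicate 1 or 3. With PTPRK replicate 6 in the fit, 16 members were called higher, beside 7.49% of all genes tested.

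Against PTPRK.RQ, in which the catalytic arginine and not the cysteine is replaced, 7 members were called higher in PTPRK.C1089S and none lower, beside 2.92% of all tested genes called higher and 2.24% lower, 3 estimates were below 0, and the members' median log2 fold change was 0.47 with -0.0077 for all genes. The 7 were IFI27, IRF9, ISG15, MX1, OASL, DHX58 and GBP1. A count of 7 also did not overlap, beside 3.9% of all tested genes. IFI27 stood at 135, 221, 98.5 and 206 CPM in PTPRK.RQ tumours, all below the lowest PTPRK.C1089S tumour at 226, with a difference of 0.79 ± 0.22 (adjusted p = 0.0423). MX1 stood at 28.3, 33.6, 23.6 and 45.7 CPM in PTPRK.RQ and at 52.6, 44.4, 56.3, 67.5 and 47.6 in PTPRK.C1089S tumours, overlapping by PTPRK.RQ replicate 4 (0.70 ± 0.17, adjusted p = 0.0203). ISG15 stood at 59.9, 107, 61.7 and 110 CPM in PTPRK.RQ and at 170, 144, 144, 112 and 115 in PTPRK.C1089S tumours, with no overlap (0.69 ± 0.19, adjusted p = 0.0341). The count turned on single tumours, being 1 without PTPRK.RQ replicate 1 or 3, 13 without PTPRK.RQ replicate 4, 2 without PTPRK.C1089S replicate 1 and 3 without PTPRK.C1089S replicate 3. DESeq2 called 17 members higher, beside 5.03% of all genes it tested, and an edgeR fit of these 9 tumours alone called 3, beside 1.42%. The call of IFI27 was lost without PTPRK.RQ replicate 1 or 3 or PTPRK.C1089S replicate 1, 2, 3 or 5, that of ISG15 without PTPRK.RQ replicate 1 or 3 or PTPRK.C1089S replicate 1, 2 or 3, and that of MX1 without PTPRK.RQ replicate 1 or 3.

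Against WT, 45 members were called higher in PTPRK.C1089S and none lower, beside 7.69% of all tested genes called higher and 7.24% lower, with 1 estimate below 0 and a median log2 fold change of 1.27 for the members and 0.0059 for all genes. In 42 members the groups did not overlap, beside 5.63% of all tested genes. XAF1 (2.71 ± 0.36, adjusted p = 2.57e-05), IFI44L (2.68 ± 0.46, adjusted p = 5.49e-04) and OAS2 (2.39 ± 0.33, adjusted p = 8.73e-05) differed most. IFI44L, a gene of unsettled function that responds strongly to interferon, stood at 0.808, 0.985, 0.414, 2.13 and 2.64 CPM in WT and at 11.3, 4.57, 7.35, 16.1 and 5.86 in PTPRK.C1089S tumours. The lowest PTPRK.C1089S tumour was thus above the highest WT tumour for this gene. IRF1, ISG20, GBP2 and GBP3 were the 4 members not called. The knockout, the construct and a possible batch all separate these groups and cannot be told apart. Of the epithelial markers, CDX2 (-1.25), CEACAM5 (-1.39), CDH17 (-1.25) and LGALS4 (-0.52) were called lower in PTPRK.C1089S than in WT. KRT20 (0.44) was called higher, and VIL1, EPCAM and CDH1 were not called. The part of these markers in the result was not tested.

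The next comparison sets the knockout tumours against WT. The knockout cells also carried the tGFP construct, which the labels do not give for WT, so loss of PTPRK and the construct cannot be told apart. In PTPRK KO against WT, 5 members were called higher and 1 lower, beside 1.08% and 1.55% of 18550 tested genes, with a members' median of 0.47 and 0.0054 over all genes. EPSTI1, an interferon-induced gene of epithelial and stromal cells, stood at 2.41, 2.04, 1.75, 2.87 and 2.62 CPM in WT and at 3.35, 5.36, 3.79, 3.37 and 7.43 in PTPRK KO tumours (0.99 ± 0.24, adjusted p = 0.0241). MX2 stood at 3.87, 4.28, 3.29, 6.89 and 6.40 CPM in WT and at 6.73, 8.97, 8.31, 9.48 and 13.8 in PTPRK KO tumours (0.93 ± 0.21, adjusted p = 0.0223). HERC6 stood at 10.3, 13.7, 13.8, 14.0 and 17.0 CPM in WT and at 19.5, 21.4, 19.1, 23.3 and 29.4 in PTPRK KO tumours (0.71 ± 0.15, adjusted p = 0.0130). EPSTI1 and HERC6 were higher in every PTPRK KO tumour than in any WT tumour, as were 7 members in all, beside 2.74% of all tested genes, and MX2 overlapped by 1 tumour of each group. IFIT5 and PARP9 were the other called rises. The study's own gene lists for this comparison hold IFIT1, IFI6 and PARP9, of which PARP9 alone was called here. Those lists were made from these tumours, so they are not independent evidence of direction. The count of called members fell to 2 without PTPRK KO replicate 5, WT replicate 1 or WT replicate 2, and to 3 without WT replicate 3, and it rose to 9 without WT replicate 5. DESeq2 called 14 members higher and 1 lower, beside 2.05% and 2.81% of all genes it tested. The call of EPSTI1 was lost without PTPRK KO replicate 2 or 5 or WT replicate 1, 2 or 3, and that of MX2 without PTPRK KO replicate 5 or WT replicate 1, 2 or 3.

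PTPRK and PTPRK.RQ were each set against the same PTPRK KO tumours, which the comparison with PTPRK.C1089S also used. With PTPRK, 10 members were called higher and none lower, which is 20.4% of the members beside 13.6% of all tested genes (14.2% were called lower), with a members' median of 0.22 and 0.0036 over all genes. With PTPRK.RQ, 12 members were called higher and none lower, 24.5% of the members beside 10.7% of all tested genes (11.1% were called lower), with medians of 0.40 and 0.0261. In both comparisons OASL and GBP2 were the 2 members with no overlap, beside 6.46% of tested genes for PTPRK and 6.77% for PTPRK.RQ. OASL rose by 0.82 ± 0.15 with PTPRK (adjusted p = 5.30e-04) and by 0.74 ± 0.16 with PTPRK.RQ (adjusted p = 0.00182). IFIT2 stood at 7.92, 10.2, 9.85, 12.3 and 15.9 CPM in PTPRK KO and at 14.0, 15.3, 18.9, 19.3 and 17.9 in PTPRK tumours and rose by 0.61 ± 0.21 (adjusted p = 0.0383), a call lost without any of PTPRK KO replicates 1 to 3 or PTPRK replicates 2 to 5. IFITM2 stood at 40.0, 29.2, 29.9, 34.0 and 47.8 CPM in PTPRK KO and at 75.2, 42.0, 48.9 and 82.9 in PTPRK.RQ tumours, with PTPRK.RQ replicates 1 and 4 far above the rest, and rose by 0.80 ± 0.19 (adjusted p = 0.00694). The PTPRK count was 3, 5 and 2 without PTPRK KO replicates 1, 2 and 3, 6 without PTPRK replicate 1 and 4 without PTPRK replicate 2, 3 or 4. The PTPRK.RQ count was 20 without PTPRK KO replicate 5 and 7 without PTPRK.RQ replicate 4.

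Between PTPRK.RQ and PTPRK, no member was called by edgeR or by DESeq2, beside 1.7% of all tested genes called higher and 2.04% lower by edgeR and 2.7% and 3.16% by DESeq2, and 4 members (IFITM2, SAMD9, PARP9 and BST2) had an unadjusted p under 0.05 in edgeR. The members' median log2 fold change was 0.15, with estimates from -0.34 to 0.83. The upper end was IFI44L, which stood at 4.84, 4.97, 4.67 and 11.2 CPM in PTPRK.RQ and at 4.77, 2.87, 3.39, 4.30 and 2.82 in PTPRK tumours (0.83 ± 0.43, adjusted p = 0.358). No member was higher in every PTPRK.RQ tumour than in every PTPRK tumour, beside 2.95% of all tested genes.

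GBP2 went its own way among the members. It stood at 46.9, 36.4, 26.4, 37.6 and 36.4 CPM in WT, 20.5, 26.1, 31.7, 19.4 and 30.1 in PTPRK KO, 38.1, 41.2, 45.9, 38.5 and 36.5 in PTPRK, 46.5, 33.4, 39.8 and 43.9 in PTPRK.RQ and 35.9, 32.5, 40.5, 42.6 and 41.8 in PTPRK.C1089S tumours. Every tumour with a reintroduced protein was above every PTPRK KO tumour, while WT replicate 3 lay within the PTPRK KO range. GBP2 fell in PTPRK KO against WT by 0.53 ± 0.14 on the log2 scale (adjusted p = 0.0497), a call lost without any of PTPRK KO replicates 1, 2, 4 and 5 or WT replicates 1, 2, 4 and 5. It rose over PTPRK KO by 0.66 ± 0.14 with PTPRK (adjusted p = 0.00221), 0.69 ± 0.15 with PTPRK.RQ (adjusted p = 0.00220) and 0.60 ± 0.14 with PTPRK.C1089S (adjusted p = 0.00244). PTPRK.C1089S tumours were not called different from WT for GBP2 (0.08 ± 0.13, adjusted p = 0.746).

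Taking the calls against PTPRK KO side by side, 6 members were called with all reintroduced proteins: DHX58, OASL, IFIT5, GBP2, PARP14 and DTX3L. PTPRK and PTPRK.C1089S shared calls for another 3, DDX60, IFIT2 and LGALS3BP, and PTPRK.RQ and PTPRK.C1089S for 5, IFIH1, USP18, SAMD9, SP110 and PARP9. With PTPRK.C1089S alone 24 were called, with PTPRK alone 1 (GBP3) and with PTPRK.RQ alone 1 (IFITM2), and 9 with none. These comparisons share their control tumours, and a call in one and not in another does not show that the proteins differ. Of all tested genes, 13.6% were called higher with PTPRK, 10.7% with PTPRK.RQ and 9.09% with PTPRK.C1089S. The share of all tested genes with each pattern was not determined, so the pattern counts cannot be set beside it. For the genes with the largest changes, the log2 fold changes over PTPRK KO were 0.74 with PTPRK, 0.78 with PTPRK.RQ and 1.69 with PTPRK.C1089S for OAS2, and 0.36, 0.55 and 1.33 for IFIT1. For IFI6 they were -0.60, -0.16 and 0.93, and for IFI27 they were -0.33, -0.03 and 0.76, of which the rise of IFI27 with PTPRK.C1089S was the single call. The group with the highest mean CPM was PTPRK.C1089S for 45 members, PTPRK.RQ for 3 (IFITM2, GBP2 and GBP3) and WT for ISG20, with PTPRK replicate 6 left out. With it the PTPRK group had the highest mean for GBP2 (41.3 against 40.9 CPM in PTPRK.RQ) and GBP3 (30.2 against 29.8 CPM). Without it the lowest was WT for 44 members, PTPRK KO for 4 (IFI35, DHX58, LGALS3BP and GBP2) and PTPRK for ISG20. The shares of all tested genes by highest and lowest group were not determined.

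The members also varied together between tumours of the same group. As the mean over members of log2(CPM + 0.5), relative to the PTPRK KO mean, WT tumours lay between -0.72 and -0.12, PTPRK KO between -0.25 and 0.41, PTPRK replicates 1 to 5 between 0.12 and 0.33, PTPRK.RQ between 0.0558 and 0.68 and PTPRK.C1089S between 0.51 and 1.05. The lowest PTPRK.C1089S tumour was above all PTPRK KO tumours and PTPRK replicates 1 to 5, but below PTPRK.RQ replicate 4. PTPRK KO replicate 5 was the highest tumour of its group in 38 of 49 members, which it was for 17.5% of all tested genes. PTPRK.RQ replicate 4 was highest in 36 members (16.9% of all genes) and PTPRK.C1089S replicate 4 in 32 (34.1%), while WT replicate 3 was lowest in 33. The share of all tested genes in which WT replicate 3 was lowest was not determined, and it was highest in 30.7% of them. PTPRK replicate 6, which is outside the main fits, had a mean of 0.79 and was above the other 5 PTPRK tumours in 40 members, 81.6% of them beside 21.3% of all tested genes. It stood at or above the lowest PTPRK.C1089S tumour in 36 members and above the highest in 6, with OAS2 at 70.0, IFIT1 at 45.1, XAF1 at 11.2 and IFI44L at 16.7 CPM. The share of all tested genes for these counts was not determined, so they alone do not place this tumour with that group.

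**Figure D4:**
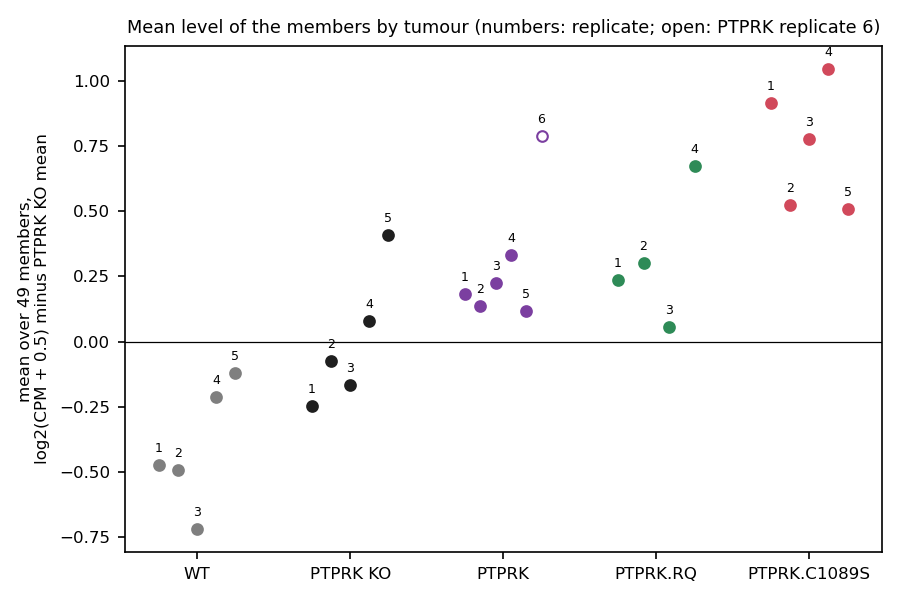
Mean over the 49 members of log2(CPM + 0.5), minus the mean of the PTPRK KO tumours, for each tumour by group, with replicate numbers; the open circle is PTPRK replicate 6. PTPRK.C1089S tumours lie between 0.51 and 1.05, and PTPRK replicate 6 lies among them at 0.79, as does PTPRK.RQ replicate 4 at 0.68.

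To see which genes followed this shared variation, each member's deviations from its group means over the 25 tumours were set against the mean deviation of the other members. Pearson's r had a median of 0.77 and was over 0.5 in 42 members. It was highest for MX2 (0.95), OAS2 (0.94), IFIT1 (0.94) and IFI44L (0.93), all of which also ran high in the tumours named above. It was lowest for LGALS3BP (-0.22) and ISG20 (-0.18), followed by GBP2 (0.35), IFI35 (0.41), GBP3 (0.41), IRF1 (0.45) and DTX3L (0.47). LGALS3BP nevertheless rose in every PTPRK.C1089S tumour above the PTPRK KO range: 796, 731, 762, 878 and 815 CPM against 1020, 1040, 1210, 1020 and 1070. Without PTPRK replicate 6 the r of LGALS3BP was -0.0078 and that of ISG20 was -0.23. The r of IRF1 and DTX3L was then higher, at 0.57 and 0.55. That of CXCL11, HERC5 and CXCL10 was lower, at 0.37, 0.45 and 0.49, and GBP2, IFI35 and GBP3 stayed low at 0.29, 0.35 and 0.36. All points of one r share the same 25 libraries and their scaling.

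**Figure D5:**
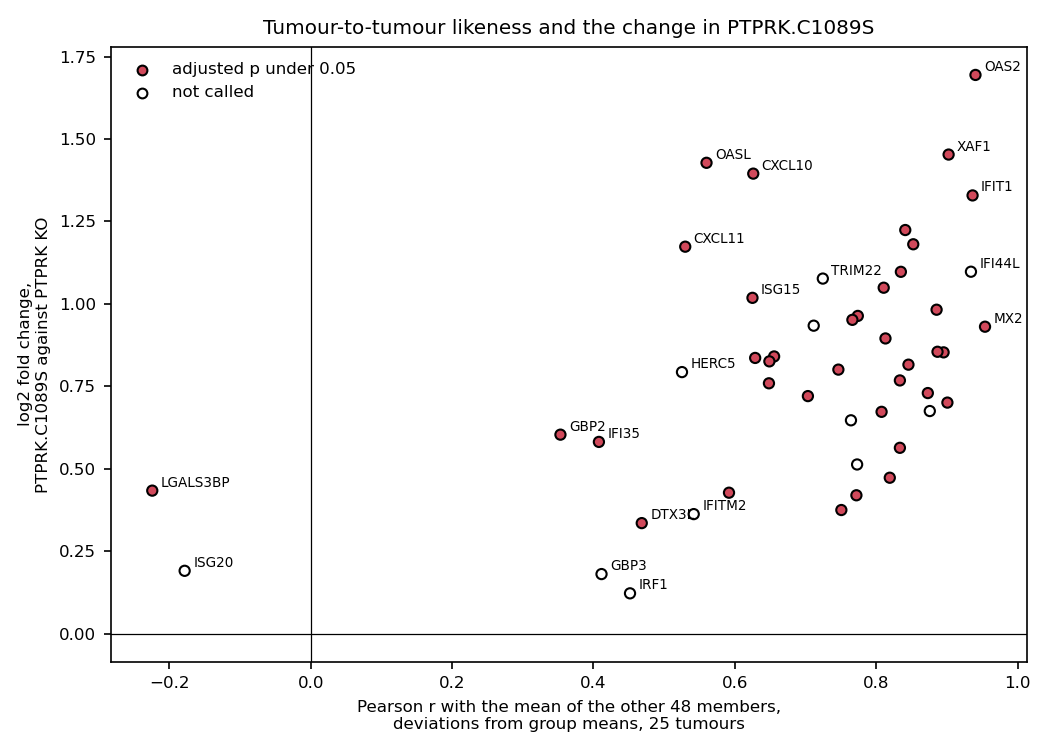
Pearson r of each member with the mean of the other members within groups (25 tumours, horizontal) and log2 fold change of PTPRK.C1089S against PTPRK KO (vertical), filled where the adjusted p was under 0.05. ISG20, GBP3 and IRF1 are low on both axes, LGALS3BP has a negative r of -0.22 with a called rise of 0.43, and OAS2, XAF1 and IFIT1 are high on both. Without PTPRK replicate 6 the r of IRF1 was 0.57.

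Of the other genes of interferon signalling, 69 listed symbols were in the table and 61 passed the filter. In PTPRK.C1089S against PTPRK KO, 27 (44.3%, beside 9.09% of all tested genes) were called higher and 1 lower, with a median log2 fold change of 0.26. The listed human interferons were near the floor: of 8 ligand genes only IFNE passed the filter (log2 fold change -0.17, adjusted p = 0.910), IFNB1 had at most 7 counts and IFNL1 at most 15 in any tumour, and IFNG had 0 in every tumour. IFNA1 was the only interferon alpha gene on the list. Counts of human genes do not measure interferon RNA of the mouse host cells, so they cannot show how much interferon the tumours held. None of the 6 receptor genes was called, with IFNAR1 at 43.0 ± 2.61 CPM in PTPRK KO and 43.7 ± 6.71 in PTPRK.C1089S. Among 11 sensors and adaptors, 6 rose: DDX58, which encodes the RNA sensor RIG-I, by 0.60, the endosomal RNA sensor TLR3 by 0.94, the adaptors STING1 by 0.43 and MYD88 by 0.32, the nucleic acid sensor ZBP1 by 1.73 and NLRC5, a regulator of antigen presentation genes, by 0.64. IRF3, a transcription factor activated downstream of RIG-I, TLR3 and STING1, fell by 0.46, from 92.3 ± 9.08 to 66.9 ± 8.5 CPM (adjusted p = 0.00266). It was also lower with PTPRK (-0.65, adjusted p = 7.61e-05) and with PTPRK.RQ (-0.67, adjusted p = 7.99e-05), over the same PTPRK KO tumours. Of 6 inhibitors of the pathway, SOCS3 rose by 1.20 and PTPN1 by 0.19.

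A further 18 of 32 tested interferon-induced genes outside the members rose and none fell. IFI16, a nuclear DNA sensor, rose most, from 0.688 ± 0.424 to 3.79 ± 2.34 CPM (2.46 ± 0.47, adjusted p = 6.97e-04), and was also called over PTPRK (2.46, adjusted p = 0.00435) and over PTPRK.RQ (2.04, adjusted p = 0.0184). LY6E, a surface protein that limits virus entry, rose from 127 ± 43.7 to 294 ± 38.7 CPM. The antigen processing genes TAP1 and PSMB9 rose by 0.78 and 1.13. The same 61 genes gave 12 called higher and 1 lower in PTPRK.C1089S against PTPRK (19.7% higher, beside 4.7% of all tested genes), 5 and 0 against PTPRK.RQ (8.2%, beside 2.92%) and 30 and 2 against WT (49.2%, beside 7.69%). They gave 1 and 0 in PTPRK KO against WT (1.64% higher, beside 1.08% of all tested genes), where NLRC5 was the called gene (0.61, adjusted p = 0.0360). Over PTPRK KO they gave 10 and 4 for PTPRK (16.4% higher, beside 13.6% of all tested genes) and 9 and 1 for PTPRK.RQ (14.8%, beside 10.7%). In PTPRK.RQ against PTPRK they gave 2 and 0 (3.28%, beside 1.7%). In the last, the called genes were TLR3 (1.03, adjusted p = 0.0165) and NLRC5 (0.64, adjusted p = 0.0253), with PTPRK.RQ above PTPRK.

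By their positions in the table (GRCh38), the members lay on 16 chromosomes, and 28 had another member starting within 250 kb. OAS1, OAS3 and OAS2 lay side by side on chromosome 12 between 112906783 and 113011723, with log2 fold changes of 0.82, 0.83 and 1.69 in PTPRK.C1089S against PTPRK KO. IFIT2, IFIT3, IFIT1 and IFIT5 lay on chromosome 10 between 89283694 and 89420997, with 0.90, 0.85, 1.33 and 0.77. GBP3, GBP1 and GBP2 lay on chromosome 1 between 89006679 and 89150456, with 0.18, 0.51 and 0.60, of which only GBP2 was called. Differences between neighbours were not tested. Counting did not use strand, and 11 members were overlapped by a gene with at least 50% of their mean count. Reads could not be assigned between IFIT1, IFIT2 or IFIT3 and LIPA, IRF1 and AC116366.2, IRF9 and AL136295.5, XAF1 and PRAL, TRIM22 and TRIM5, CMPK2 and RSAD2, PARP9 and DTX3L or IFITM1 and IFITM2 where these overlap. The near-identical IFITM, GBP and USP18 gene copies may also share reads.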

How the data were processed

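RNA-seq counts of the 25 tumours were analysed. Per the study's methods and the submitters' processing notes, the authors trimmed the reads of poly(A)-enriched RNA with trim_galore, mapped them to human GRCh38 and separately to mouse GRCm38 with HISAT2 (2.1.0 in the notes), discarded alignments of low quality and counted exon reads per Ensembl gene in SeqMonk without strand. The deposited values are whole-number counts, not normalized. Of 38179 rows, 51 repeated ones were left out.

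Groups came from the labels, which number replicates without naming animals, so that p-values measure the spread between these tumours. Between tumours of a group, the mean squared difference of counts was 12.3 to 104 times that expected from counting error (chi-square per gene, 51 pairs). The spread between tumours thus exceeded counting error. TMM normalization, filterByExpr and the quasi-likelihood test of edgeR 4.0.16 (R 4.3.3, Benjamini-Hochberg adjustment over all tested genes) were used, after tests on simulated data. One fit held 19 tumours and 18550 genes (WT, PTPRK KO, PTPRK replicates 1 to 5 and PTPRK.RQ), and one added PTPRK.C1089S (24 tumours, 18758 genes) for the comparisons with that group. CPM used TMM factors of all 25 tumours. Alternatives were RLE factors, no filter, DESeq2 1.42.0, all 25 tumours (18823 genes), only the groups compared, a log2 fold change of at least 1, a replicate block and leaving out each tumour.

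The members and lists were chosen with earlier results of these data known. Values by tumour are given for the 10 called members with the largest rise in PTPRK.C1089S against PTPRK KO; for the rest, each role's 2 members of highest mean CPM serve as examples, with the 3 largest called rises and falls of other comparisons. Other members named, such as IRF1, ISG20, GBP3, STAT2 and IFIH1, were chosen after their values were seen. The study's fold change lists were not used. Values of some genes of the pathway list are not reported here.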

Additional observations from a re-analysis of the deposited data

Results flagged for a closer look

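Each of 25 named members was checked for a tumour far from the rest of its group, in 125 groups of 4 to 6 tumours, by the gap to its nearest neighbour relative to the group's range at the 95% critical value. Chance alone gives about 1 in 20 groups, or 6.25 here, and 8 were found. PTPRK replicate 6 was high for DHX58 (12.2 CPM, next 10.2), IFI44L (16.7 CPM, next 4.77) and IFI27 (187 CPM, next 144). PTPRK.RQ replicate 4 was high for IFI44L (11.2 CPM, next 4.97), and PTPRK KO replicate 5 for UBE2L6 (13.5 CPM, next 6.40). WT replicate 3 was low for DHX58 (5.75 CPM, next 7.55) and IFITM2 (20.7 CPM, next 30.5), and PTPRK KO replicate 3 for IRF1 (28.6 CPM, next 34.7).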

How the results depend on the processing

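For the single genes checked, 649 of 742 values over 44 results kept their direction and side of the threshold, 74 lost the call, 19 gained one and none reversed. Counts of called members stayed within 1.5 times under RLE factors and with all 25 tumours, and elsewhere moved as follows. Requiring a log2 fold change of at least 1 left 11 members in PTPRK.C1089S against PTPRK KO, 3 against PTPRK, 0 against PTPRK.RQ and 0 for PTPRK KO over WT and for PTPRK and PTPRK.RQ over PTPRK KO, which follows from the stricter rule. DESeq2 gave 17 in PTPRK.C1089S against PTPRK.RQ and 15 in PTPRK KO against WT, a fit of only the tumours compared gave 3 in PTPRK.C1089S against PTPRK.RQ, and testing all genes with a count gave 5 in PTPRK against PTPRK KO. The cause of these shifts was not tested. Leaving out 1 tumour gave 35 to 43 in PTPRK.C1089S against PTPRK KO, 13 to 21 against PTPRK, 1 to 13 against PTPRK.RQ, 43 to 45 against WT, 2 to 9 for PTPRK KO over WT, 2 to 13 for PTPRK over PTPRK KO, 7 to 20 for PTPRK.RQ over PTPRK KO and 0 for PTPRK.RQ over PTPRK.

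With the replicate number as a block, 16 members differed for PTPRK KO over WT, 24 for PTPRK.RQ over PTPRK KO and 2 for PTPRK.RQ over PTPRK, and other counts stayed within 1.5 times. The share of all tested genes called under the block is not given here, so these counts cannot be set beside it. In PTPRK.C1089S against PTPRK KO the block also gave calls for IFI6, IFI44L and TRIM22 (adjusted p = 0.0313, 0.0378 and 0.0425). The labels give no meaning to the numbers beyond a name: over 46 same-numbered pairs the correlation of deviations had a median of 0.0415, from -0.26 to 0.47, with 18 pairs over 0.1 and -0.0242 for other numbers, and 8 of 25 tumours matched best with their own number. Depth limits the genes with few counts, among them CXCL10, CXCL11, HERC5, TRIM22, XAF1 and IFI44L in WT, IFI16, ZBP1 and the interferon genes.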
